A study of Mus musculus with 170 samples.

Results

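Naive and memory CD4 T cells from the spleen of young mice were compared by RNA sequencing over all genes. The comparison held 9 of the 170 libraries of the study, 5 labelled CD4 memory and 4 labelled CD4 naive, and these were chosen by their labels alone. All 9 came from mice of a C57/Bl6 background aged 2 months, with no treatment or engineered allele named in the labels. The cells had been purified by fluorescence-activated sorting, and each library pooled tissue of 5 healthy animals, so p-values reflect the spread between pools. The surface markers and gates of the sort are not given in the sources used here, so a gene such as Cd44 may have helped to define the groups. For comparison, 4 CD8 naive and 3 CD8 memory libraries from spleens of the same age and background were used. The old CD4 libraries, 3 naive and 5 memory, came from spleens of mice aged 22 to 24 months on that background.

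Naive CD4 T cells have left the thymus but have not met their antigen. They circulate through lymphoid organs, guided by receptors that include the chemokine receptor CCR7, and are kept quiescent by transcription factors that include TCF-1, LEF-1, KLF2 and FOXP1. Memory cells descend from cells that responded to antigen. They bear adhesion molecules and receptors for inflamed tissue, and they retain features of helper subsets that are set by regulators such as T-bet, GATA3 or BCL6, while regulatory T cells, marked by FOXP3, can be naive-like or activated.

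The 9 libraries held 1401452 to 4211695 counts each. Levels below are in CPM, the counts scaled to the normalised library size, given for single libraries in the order of their replicate numbers. Fold changes are memory minus naive on the log2 scale with an approximate standard error. It was derived from the test, as the size of the fold change divided by the square root of its F statistic. Each adjusted p is a Benjamini-Hochberg value over all genes tested, computed with the quasi-likelihood test of edgeR, and a gene is said to rise or fall in memory cells where it is under 0.05. Of the 14 markers of T cells, which include the CD3 chains and Cd4, 0 rose and 1 fell. Cd4 stood at 278, 288, 309 and 305 CPM in the naive libraries and at 309, 369, 380.02, 330.00 and 299.99 CPM in the memory libraries. Cd8a stayed at 6.399 to 12.2 CPM and 3.02 to 17.4 CPM in naive and memory libraries. The count of T cell markers that fell was 2 without naive replicate 1 or memory replicate 5.

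Markers of other cells were not evenly spread over the groups. The summed level of 9 plasmacytoid dendritic cell (pDC) markers was 135 to 177 CPM in naive and 574 to 3002 CPM in memory libraries, highest in memory replicate 2 and lowest in memory replicate 3. Sums of the 10 conventional dendritic cell markers were 13.5 to 39.03 CPM and 153 to 352 CPM, and those of the 13 macrophage and monocyte markers 184 to 242 CPM and 484 to 1282 CPM. Conversely, neutrophil markers summed to 156 to 230.5 CPM in naive and 61.7 to 169.5 CPM in memory libraries. Platelet and adipocyte markers were too low to be tested. These values stand beside the results they move with, and their part in those results was not tested.

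Of 10763 genes tested, 2804 differed between memory and naive cells (26.1%), with 1579 higher in memory (14.7%) and 1225 lower (11.4%). These shares are the background for the count of each gene list of this comparison. In 2157 of them the libraries did not overlap, beside 22.2% of all genes tested without overlap (12.7% higher and 9.5% lower). Large differences lay mostly on the memory side. A change of at least 2-fold was seen for 1039 genes upwards (9.65%) and 477 downwards (4.43%), and one of at least 16-fold for 106 and 15. The median over all genes tested was -0.03 on the log2 scale. The plot of fold change against level shows this asymmetry.

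**Figure D1:**
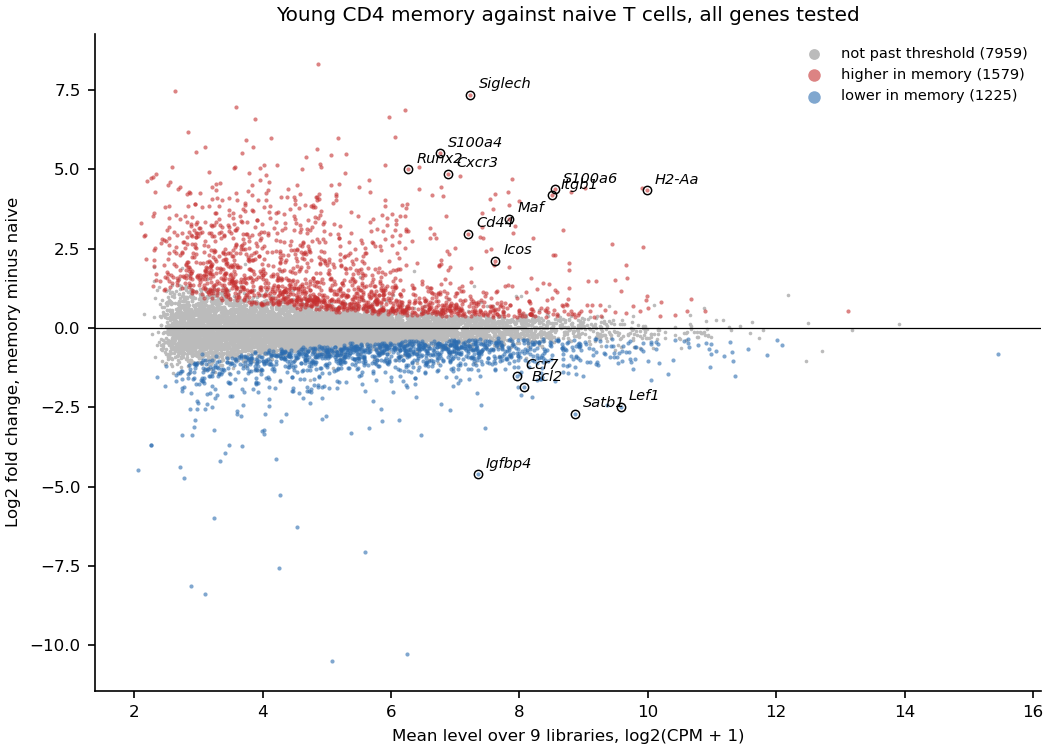
Log2 fold change (memory minus naive) against the mean level (log2 of CPM + 1, mean over the 9 libraries) for the 10763 genes tested in young CD4 T cells. Red points are the 1579 genes higher and blue points the 1225 genes lower in memory cells at an adjusted p under 0.05, grey points are the others, and the named genes are marked. Between 2 and 8 on the log2 scale there are more red than blue points, and the lowest blue points are immunoglobulin V segments.

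Genes of the naive state fell in memory cells nearly as a group. Of 18 naive T cell genes tested, 17 fell and 0 rose, with a median of -1.28, and 14 had libraries that did not overlap. Lef1 (chr 3, 131110471 to 131224356), a Wnt-responsive transcription factor of naive T cells, was read at 1237, 1407, 1573 and 1394 CPM in naive and at 206, 239.9, 249.7, 276 and 292 CPM in memory libraries. Every memory library lay below every naive one (log2 fold change -2.47 ± 0.14, adjusted p = 2.2e-08). Its partner Tcf7, which encodes TCF-1, went from 879, 1067, 1286 and 1076 CPM to 389.6, 516, 569, 570.01 and 593 CPM, also without overlap (log2 fold change -1.03 ± 0.15, adjusted p = 0.000167). Satb1, a chromatin organiser, stood at 947, 712, 1149.6 and 703 CPM in naive and 129.6, 115, 137, 164 and 132 CPM in memory libraries (log2 fold change -2.69 ± 0.17, adjusted p = 6.22e-08). That is the steepest fall among the transcription regulators of the list.

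Receptors of T cell traffic fell too. Ccr7 (chr 11, 99144196 to 99155077), the receptor that draws T cells into lymph nodes, had 339, 414, 397 and 403 CPM in naive and 122, 147, 151, 138 and 127 CPM in memory libraries. The groups did not overlap (log2 fold change -1.50 ± 0.12, adjusted p = 9.06e-07). S1pr1, the receptor for egress from lymphoid tissue, fell as well (log2 fold change -1.02 ± 0.14, adjusted p = 9.22e-05). Klf2, a transcription factor that drives S1pr1, had 257, 341, 458 and 317 CPM and 255, 279.7, 257, 287 and 236 CPM, so the groups overlapped and the difference missed the threshold (log2 fold change -0.38 ± 0.14, adjusted p = 0.0612). It passed without naive replicate 1, its lowest naive library (adjusted p = 0.0221).

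The lowest fold changes among genes with at least 20 CPM and no overlap were led by secreted and surface proteins. Igfbp4 (chr 11, 99041244 to 99054392), a secreted binding protein for insulin-like growth factors, had 247, 365, 407 and 367 CPM in naive and 7.67, 21.7, 21.1, 11.2 and 10.3 CPM in memory libraries. Leaving out immunoglobulin segments, no other such gene had a lower fold change (log2 fold change -4.60 ± 0.27, adjusted p = 3.87e-08). It was followed by Acvrl1, a receptor of the TGF-β family, at -3.69 ± 0.48, Arhgap29 at -3.22 ± 0.41 and Ly6c1 at -2.93 ± 0.24. The value for Acvrl1 was -4.66 without memory replicate 1, the memory library with most of its counts. Vipr1, the receptor for vasoactive intestinal peptide, fell from 41.4 to 68.99 CPM to 1.395 to 10.4 CPM (log2 fold change -2.85 ± 0.31, adjusted p = 9.68e-06). Dapl1, another gene of the naive list, fell from 469 to 564 CPM to 95.6 to 141 CPM (log2 fold change -2.17 ± 0.13, adjusted p = 3.09e-08).

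Several abundant regulators fell too. Ets1, a transcription factor of lymphocytes, was at 3031, 4057, 3798 and 3562 CPM in naive and 1308, 1421, 1672, 2161 and 2188 CPM in memory libraries. It fell about 2-fold with no overlap (log2 fold change -1.04 ± 0.17, adjusted p = 0.000462). Klf13 fell from 1338 to 1949 CPM to 381 to 802 CPM (log2 fold change -1.65 ± 0.22, adjusted p = 6.15e-05), and Pdcd4, an inhibitor of translation, from 2448 to 3449 CPM to 683 to 1832 CPM (log2 fold change -1.22 ± 0.25, adjusted p = 0.00252). Foxp1 and Bach2, repressors that hold T cells in the naive state, fell by 1.11 and 2.16 on the log2 scale. Both were chosen after their values were seen.

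Calcium-binding, cytoskeletal and adhesion genes rose together in memory cells. Of the 19 genes of this list 16 rose and 0 fell, with a median of 1.57, and 15 had no overlap. S100a6 (chr 3, 90612882 to 90624181) had 36.998, 27.7, 32.1 and 26.7 CPM in naive and 806, 783, 508, 597 and 559 CPM in memory libraries, which did not overlap (log2 fold change 4.37 ± 0.18, adjusted p = 7.72e-10). S100a4, its neighbour on the chromosome (chr 3, 90603771 to 90606045), had 4.75, 1.81, 5.99 and 2.67 CPM and 266, 235, 149, 120.00 and 179 CPM (log2 fold change 5.50 ± 0.31, adjusted p = 2.2e-08). Both encode small calcium-binding proteins that act on the cytoskeleton. S100a11 and S100a10, which lie farther along the same chromosome, rose by 2.98 ± 0.25 and 1.57 ± 0.12. Anxa2, the annexin that pairs with S100A10, went from 35.3, 31.9, 30.6 and 24.5 CPM to 322, 286, 274, 253 and 269.8 CPM without overlap (log2 fold change 3.18 ± 0.15, adjusted p = 4.23e-09). Lgals1, for galectin-1, rose from 175 ± 31.8 CPM (SD, n = 4) to 1109 ± 245 CPM (SD, n = 5).

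Cd44 (chr 2, 102811141 to 102901665), the hyaluronan receptor widely used to sort memory T cells, had 19.01, 37.3, 42.8 and 22.4 CPM in naive and 200.1, 302, 212, 241 and 238 CPM in memory libraries. It rose with no overlap (log2 fold change 2.97 ± 0.22, adjusted p = 3.42e-07). Among the 12 integrin genes tested, 8 rose and 2 fell, with a median of 0.79. The number that rose was 5 without naive replicate 3 and 5 without naive replicate 4. Itgb1 (chr 8, 128685654 to 128733200), the β1 chain shared by receptors for matrix and VCAM-1, was the steepest. Its naive libraries held 33.9, 31.9, 36.9 and 33.6 CPM and its memory libraries 529.6, 768, 516, 617 and 706 CPM (log2 fold change 4.19 ± 0.16, adjusted p = 3.54e-10). Itga4, which pairs with it, rose by 1.32 ± 0.16, and Itgal, a chain of LFA-1, by 0.69 ± 0.16. Itga6, a laminin receptor chain, went the other way, from 85.9 to 164 CPM to 26.1 to 58.2 CPM (log2 fold change -1.57 ± 0.25, adjusted p = 0.000289).

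**Figure D2:**
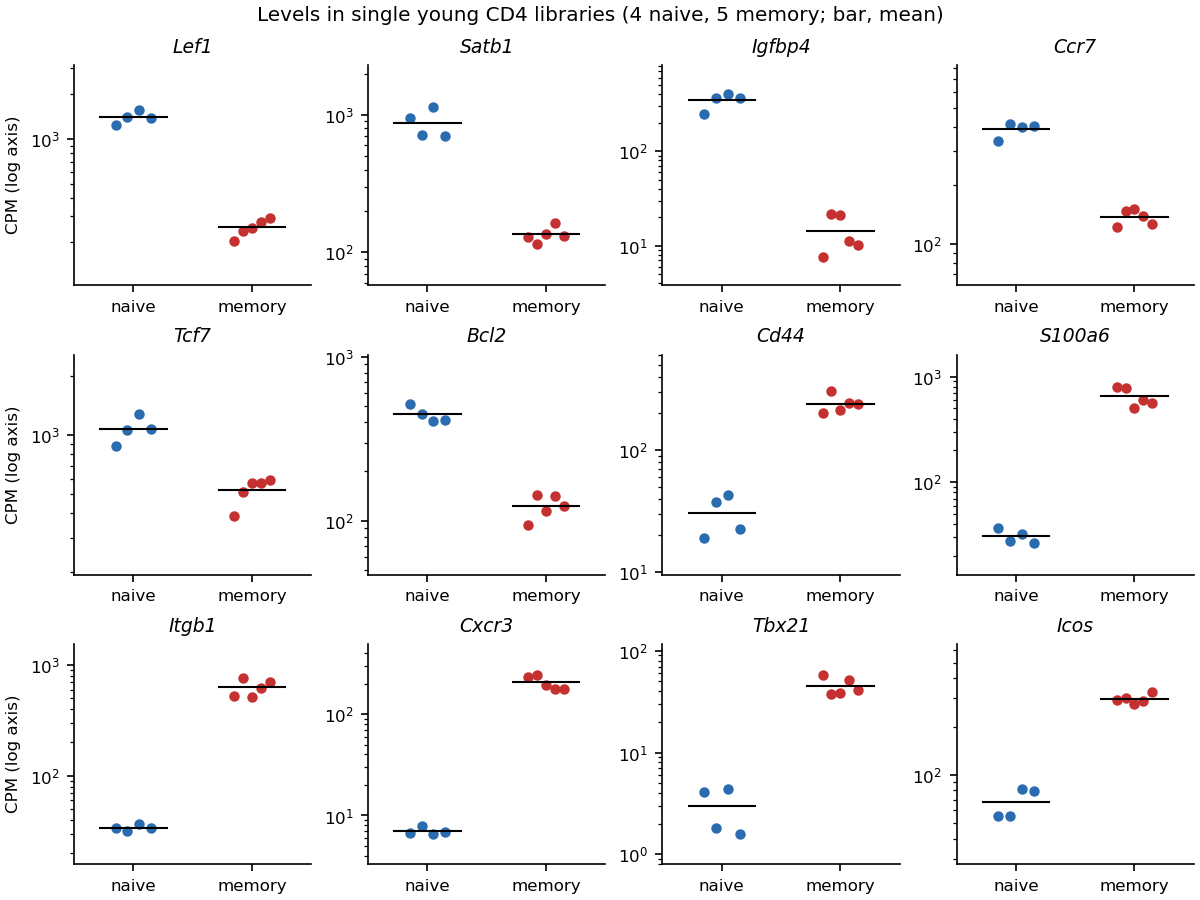
Level (CPM, log axis) of 12 genes in each of the 4 naive (blue) and 5 memory (red) young CD4 libraries, 1 point per library, with a bar at the group mean. In all 12 genes the groups are apart, with Lef1, Satb1, Igfbp4, Ccr7, Tcf7 and Bcl2 lower and the other 6 higher in memory cells.

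Promoter sequence is shown for 5 genes that rose, to give the bases in front of Anxa2 and of genes of the chemokine receptor and S100 groups. Each of the 5 holds the letters it is shown for, so they do not measure how common a match is. RefSeq windows of GRCm38.p6, from 250 bases before to 50 bases after a start, were searched on both strands for TGTGGT, bound by RUNX factors, and TGANTCA, bound by AP-1 factors. Of all 32851 windows 16.8% held the RUNX letters and 7.81% the AP-1 letters. For windows of genes tested the shares were 12.8% and 4.79%. They were 14.9% and 7.65% for genes higher in memory, and 10.1% and 3.87% for genes lower in memory. A match describes the sequence and is not a binding site. The 250 bases before the start are printed on the strand of the gene from 5′ to 3′, with the motif on either strand in capitals. Cxcr3 (chrX:101734148-101734397, minus strand), Cxcr6 (chr9:123806227-123806476, plus strand) and S100a6 (chr3:90612644-90612893, plus strand) are shown for the RUNX letters. S100a11 (chr3:93520246-93520495, plus strand) and Anxa2 (chr9:69453433-69453682, plus strand) are shown for the AP-1 letters.
Cxcr3: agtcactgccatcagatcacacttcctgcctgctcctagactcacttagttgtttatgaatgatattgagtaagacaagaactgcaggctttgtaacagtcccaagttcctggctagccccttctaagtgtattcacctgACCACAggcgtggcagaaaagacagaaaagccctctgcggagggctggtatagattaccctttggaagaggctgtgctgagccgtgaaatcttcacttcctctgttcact
Cxcr6: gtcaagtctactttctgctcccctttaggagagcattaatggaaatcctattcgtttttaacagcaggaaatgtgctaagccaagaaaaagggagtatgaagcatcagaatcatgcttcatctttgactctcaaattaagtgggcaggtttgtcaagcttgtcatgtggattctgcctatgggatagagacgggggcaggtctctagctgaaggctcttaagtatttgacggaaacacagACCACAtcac
S100a6: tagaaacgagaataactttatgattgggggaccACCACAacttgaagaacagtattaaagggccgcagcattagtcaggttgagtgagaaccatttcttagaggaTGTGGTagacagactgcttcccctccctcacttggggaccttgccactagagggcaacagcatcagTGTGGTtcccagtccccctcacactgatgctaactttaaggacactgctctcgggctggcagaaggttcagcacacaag
S100a11: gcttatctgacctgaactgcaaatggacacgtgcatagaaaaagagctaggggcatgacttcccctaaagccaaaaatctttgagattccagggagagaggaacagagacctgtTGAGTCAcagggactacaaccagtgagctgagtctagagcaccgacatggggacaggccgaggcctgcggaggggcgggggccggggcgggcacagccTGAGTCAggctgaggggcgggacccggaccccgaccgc
Anxa2: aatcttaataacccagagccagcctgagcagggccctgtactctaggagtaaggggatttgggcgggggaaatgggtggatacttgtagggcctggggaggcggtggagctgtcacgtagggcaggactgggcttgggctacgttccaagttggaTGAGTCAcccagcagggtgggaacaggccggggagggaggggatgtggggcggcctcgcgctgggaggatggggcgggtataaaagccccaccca
In these stretches the RUNX letters occur 1 time in Cxcr3, 1 time in Cxcr6, where they end 5 bases before the start, and 3 times in S100a6. The AP-1 letters occur 2 times in S100a11 and 1 time in Anxa2.

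Many genes of the Th1, Th17 and follicular helper lists rose in the memory pool. Of the 15 Th1 genes tested, 14 rose and 0 fell, with a median of 2.31. Tbx21 (chr 11, 97098071 to 97115331), which encodes T-bet, the regulator of the Th1 state, had 4.07, 1.81, 4.41 and 1.5997 CPM in naive and 57.99, 37.4, 38.1, 51.6 and 41.1 CPM in memory libraries (log2 fold change 3.80 ± 0.30, adjusted p = 7.49e-07). Its target Cxcr3 (chr X, 101731535 to 101734269), a receptor for interferon-induced chemokines, had 6.79, 7.83, 6.62 and 6.93 CPM and 235, 244, 192, 178 and 178 CPM. The memory libraries were all more than 20 times as high as any naive one (log2 fold change 4.86 ± 0.17, adjusted p = 2.28e-10). Cxcr6 (chr 9, 123806475 to 123811760), the receptor for CXCL16, had 4.41, 7.22, 7.56 and 5.33 CPM and 126, 96.4, 80.7, 97.7 and 103 CPM, again far apart (log2 fold change 4.03 ± 0.21, adjusted p = 1.25e-08). Ifng itself was low and uneven among memory libraries, at 11.3, 5.63, 29.1, 46.05 and 16.9 CPM beside 3.05, 1.81, 4.096 and 1.5997 CPM (log2 fold change 2.92 ± 0.60, adjusted p = 0.00214). Eomes, the T-box factor of cytotoxic cells, overlapped between the groups (log2 fold change 0.08 ± 0.30, adjusted p = 0.878).

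Fewer Th17 genes could be measured. Of 13 genes listed 6 were high enough to be tested, and 6 rose and 0 fell. Rora, a nuclear receptor of Th17 and other T cells, had 13.9, 23.5, 22.998 and 24.5 CPM in naive and 143, 199, 146, 162 and 173 CPM in memory libraries, with no overlap (log2 fold change 2.96 ± 0.18, adjusted p = 5.55e-08). Ccr6, the homing receptor of Th17 cells, rose to 17.4 to 44.6 CPM (log2 fold change 3.80 ± 0.57, adjusted p = 0.000181), and by 4.40 without naive replicate 3. Il17a was counted in 2 of the 5 memory libraries and in 0 naive ones, at no more than 2.09 CPM, and was too low to be tested.

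Th2 genes were mostly near the limit of detection, and 3 of 10 were tested. Gata3, the Th2 regulator that all T cells express, had 189.7, 247, 285 and 227 CPM and 252, 262, 246, 364 and 356 CPM and did not pass (log2 fold change 0.32 ± 0.16, adjusted p = 0.172). Ccr4, a receptor of Th2 and skin-homing cells, rose from 0 to 2.04 CPM to 13.3 to 26.6 CPM (log2 fold change 3.62 ± 0.46, adjusted p = 4.23e-05). Il4, outside of activation a rare transcript, rose from 0 to 1.58 CPM to 2.81 to 6.98 CPM (log2 fold change 2.91 ± 0.60, adjusted p = 0.00225), with a fold change of 3.92 without naive replicate 3. The number of Th2 genes that rose was 2, and it was 1 without memory replicate 1, 3 or 5, 3 without any 1 of the naive libraries, 0 with a minimum count of 50 and 4 with no filter on low counts.

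Most follicular helper genes rose, while their regulator Bcl6 did not pass the threshold. Of 15 tested 12 rose and 0 fell, with a median of 2.12. Cxcr5, the receptor that leads T cells into B cell follicles, had 7.13, 9.03, 9.77 and 6.399 CPM in naive and 54.6, 51.8, 70.2, 51.6 and 60.5 CPM in memory libraries (log2 fold change 2.82 ± 0.22, adjusted p = 5.18e-07). Maf, a transcription factor that drives IL-21 and IL-10, had 24.1, 38.5, 43.2 and 35.2 CPM and 307, 384, 372, 403 and 447 CPM (log2 fold change 3.44 ± 0.18, adjusted p = 1.56e-08). Il21 rose to 8.39 to 28.6 CPM, with a fold change of 4.11 ± 0.63, or 5.42 without naive replicate 1. Sostdc1, a secreted antagonist of BMP and Wnt signals, had 30.2, 86.4, 91.7, 98.4 and 79.2 CPM in memory libraries, lowest in replicate 1, beside 2.67 to 4.41 CPM (log2 fold change 4.44 ± 0.39, adjusted p = 1.45e-06). Bcl6, the regulator of follicular helper cells, overlapped between the groups at 7.47 to 18.7 CPM and 16.04 to 27.2 CPM (log2 fold change 0.60 ± 0.30, adjusted p = 0.16). Tox overlapped too (log2 fold change 0.02 ± 0.15, adjusted p = 0.934).

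Regulatory T cell genes were also higher in the memory pool, where 11 of 14 rose and 0 fell. Foxp3 (chr X, 7573644 to 7595245), the factor that defines this lineage, had 9.16, 8.43, 14.8 and 12.3 CPM in naive and 17.5, 24.1, 38.6, 33.5 and 27.8 CPM in memory libraries. It was present in both groups and rose without overlap (log2 fold change 1.32 ± 0.29, adjusted p = 0.00404), but did not pass when all 4 CD4 groups shared 1 spread (adjusted p = 0.0857). Ikzf2, which encodes Helios, rose from 50.6 to 94.4 CPM to 279 to 656 CPM (log2 fold change 2.83 ± 0.25, adjusted p = 1.85e-06). Nrp1, also a known surface protein of pDC, rose from 0.533 to 12.6 CPM to 78.4 to 146 CPM (log2 fold change 3.86 ± 0.38, adjusted p = 4.98e-06). Il2ra, the high-affinity chain of the IL-2 receptor, overlapped between the groups (log2 fold change 0.88 ± 0.28, adjusted p = 0.0318) and lost its call without naive replicate 1, 2 or 4 or memory replicate 3, with adjusted p-values up to 0.0945. In pooled cells, more cells of a subset and more RNA per cell cannot be told apart.

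Among regulators of effector and memory fate, 13 of 22 rose and 2 fell, and 8 of those that rose had no overlap. With each library left out, 10 to 11 rose and 2 to 3 fell. Id2, an inhibitor of E proteins that favours effector cells, had 204, 211, 403 and 252 CPM in naive and 921, 735, 569, 679.5 and 841 CPM in memory libraries (log2 fold change 1.48 ± 0.19, adjusted p = 4.77e-05). Id3, its counterpart, overlapped (log2 fold change 0.58 ± 0.18, adjusted p = 0.029) and lost its call without naive replicate 3 or 4 or memory replicate 2, 3 or 5. Bhlhe40, a factor of cytokine-producing T cells, had 70.2, 58.3, 151, 429.8 and 85.9 CPM in memory libraries, of which replicate 4 was far above the others, beside 12.3 to 23.6 CPM (log2 fold change 3.16 ± 0.56, adjusted p = 0.000781). Without that library its fold change was 2.37. Runx2 rose from 1.07 to 6.79 CPM to 100.2, 205, 63.2, 184 and 119.8 CPM (log2 fold change 5.00 ± 0.43, adjusted p = 1.39e-06), and Zeb2 from 4.41 to 6.11 CPM to 54.2, 60.7, 18.6, 82.3 and 33.3 CPM (log2 fold change 3.26 ± 0.39, adjusted p = 2.64e-05). Both are also known regulators of pDC, and Runx2, like the pDC markers, was highest in memory replicate 2 and lowest in replicate 3. Zeb2 was also lowest in replicate 3 but was highest in replicate 4. Prdm1, for BLIMP-1, overlapped (log2 fold change 0.77 ± 0.30, adjusted p = 0.0714) and passed without naive replicate 4 (adjusted p = 0.0432).

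Many receptors for chemokines rose. Of 15 chemokine and migration receptor genes tested, 10 rose and 2 fell, with a median of 2.82. Both that fell, Ccr7 and S1pr1, are described above. Ccr2, a receptor of inflammatory chemokines that monocytes share, rose from 5.87 to 13.2 CPM to 56.2 to 109.7 CPM (log2 fold change 3.06 ± 0.24, adjusted p = 6.64e-07).

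Cytokine receptors went both ways, with 9 of 24 higher and 8 lower. Il2rb, the chain through which memory cells answer IL-15, had 34.96, 57.2, 61.7 and 55.99 CPM in naive and 268, 326, 276, 317 and 299 CPM in memory libraries (log2 fold change 2.50 ± 0.16, adjusted p = 8.95e-08). The shared γ chain Il2rg overlapped (log2 fold change -0.09 ± 0.14, adjusted p = 0.671). Il4ra, the receptor for IL-4, went down from 96.7, 77.05, 148 and 119 CPM to 44.6, 51.4, 46.6, 35.6 and 38.1 CPM (log2 fold change -1.35 ± 0.18, adjusted p = 7.4e-05). Tgfbr3, a co-receptor for TGF-β, fell from 67.2 to 111 CPM to 15.3 to 25.6 CPM (log2 fold change -2.30 ± 0.22, adjusted p = 4.16e-06), and Ifngr2, the signalling chain for interferon-γ, from 82.7 to 198 CPM to 26.1 to 48.6 CPM (log2 fold change -1.77 ± 0.24, adjusted p = 7.8e-05). Il7r, the receptor for the survival cytokine IL-7 and chosen after its values were seen, fell by less, from 779.7, 664, 653 and 735 CPM to 356, 532, 463, 382 and 516 CPM (log2 fold change -0.66 ± 0.14, adjusted p = 0.00316). It did not pass when all 4 CD4 groups shared 1 spread (adjusted p = 0.0679).

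Receptors that restrain T cells rose in 9 of 11 cases, and 0 fell. Pdcd1, which encodes PD-1, had 20.03, 15.05, 12.9 and 10.1 CPM in naive and 74.5, 68.3, 86.7, 106 and 107 CPM in memory libraries (log2 fold change 2.58 ± 0.24, adjusted p = 3.13e-06). Ctla4 had 9.16, 6.62, 32.8 and 7.47 CPM, with naive replicate 3 far above the others, and 47.4, 40.2, 94.3, 123 and 68.95 CPM (log2 fold change 2.35 ± 0.46, adjusted p = 0.00151). Its fold change was 3.20 without that naive library. Havcr2, for TIM-3, and Cd244a, a SLAM family receptor, rose to 8.02 to 29.7 CPM and 15.5 to 59.4 CPM. Myeloid and dendritic cells also express both. Each was lowest in memory replicate 3 and highest in memory replicate 1, while the summed pDC markers were highest in replicate 2. Tigit did not pass (log2 fold change 0.74 ± 0.29, adjusted p = 0.0808), and Lag3 was too low to be tested, at no more than 6.03 CPM.

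Costimulatory genes rose in 9 of 16 cases, with 1 lower. Icos (chr 1, 60977927 to 61000320), the inducible relative of CD28, had 55.7, 55.4, 81.6 and 79.5 CPM in naive and 292, 301, 277, 291 and 327 CPM in memory libraries (log2 fold change 2.12 ± 0.15, adjusted p = 2e-07). Tnfrsf4, for OX40, went from 51.6, 49.96, 56.7 and 46.9 CPM to 249.9, 264, 298, 289 and 289.7 CPM (log2 fold change 2.43 ± 0.14, adjusted p = 2.59e-08), and the memory libraries lay close together in both. Tnfsf14, for the ligand LIGHT, rose from 1.02 to 3.01 CPM to 47.6 to 74.999 CPM (log2 fold change 4.89 ± 0.28, adjusted p = 2.59e-08). Its receptor Tnfrsf14 went from 61.1 to 73.3 CPM to 29.6 to 57.9 CPM (log2 fold change -0.61 ± 0.19, adjusted p = 0.0256), a call that was lost without any 1 of 6 libraries and held without naive replicate 3 or memory replicate 2 or 3, where the number of list members that fell was 2, 1 and 2. Cd28, the constitutive receptor, overlapped (log2 fold change 0.21 ± 0.15, adjusted p = 0.33).

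Of 24 cytokine and cytotoxic effector genes 17 were tested, and 10 rose and 2 fell, or 1 fell without any 1 library other than naive replicate 1 and memory replicate 4. Tnf rose from 2.67 to 7.22 CPM to 12.1 to 29.6 CPM (log2 fold change 2.02 ± 0.36, adjusted p = 0.000812), and Il2 from 17.7 to 20.5 CPM to 29.3 to 43.5 CPM (log2 fold change 0.90 ± 0.19, adjusted p = 0.00302). Gzma, a granzyme of cytotoxic cells, had 16.97, 21.1, 18.6 and 7.47 CPM and 86.7, 38.2, 117, 61.4 and 44.8 CPM (log2 fold change 2.12 ± 0.36, adjusted p = 0.000536). Gzmb, which pDC also express, rose from 2.13 to 5.09 CPM to 8.47 to 29.2 CPM (log2 fold change 2.22 ± 0.40, adjusted p = 0.000872). It was highest in memory replicate 1 and lowest in memory replicate 5. Prf1, for the pore-forming protein perforin, went the other way, from 24.4, 34.3, 31.2 and 26.7 CPM in naive to 6.23, 4.42, 12.03, 11.9 and 5.44 CPM in memory libraries (log2 fold change -1.89 ± 0.32, adjusted p = 0.000499). The 2 groups did not overlap, so the granzymes and perforin differed in direction.

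**Figure D3:**
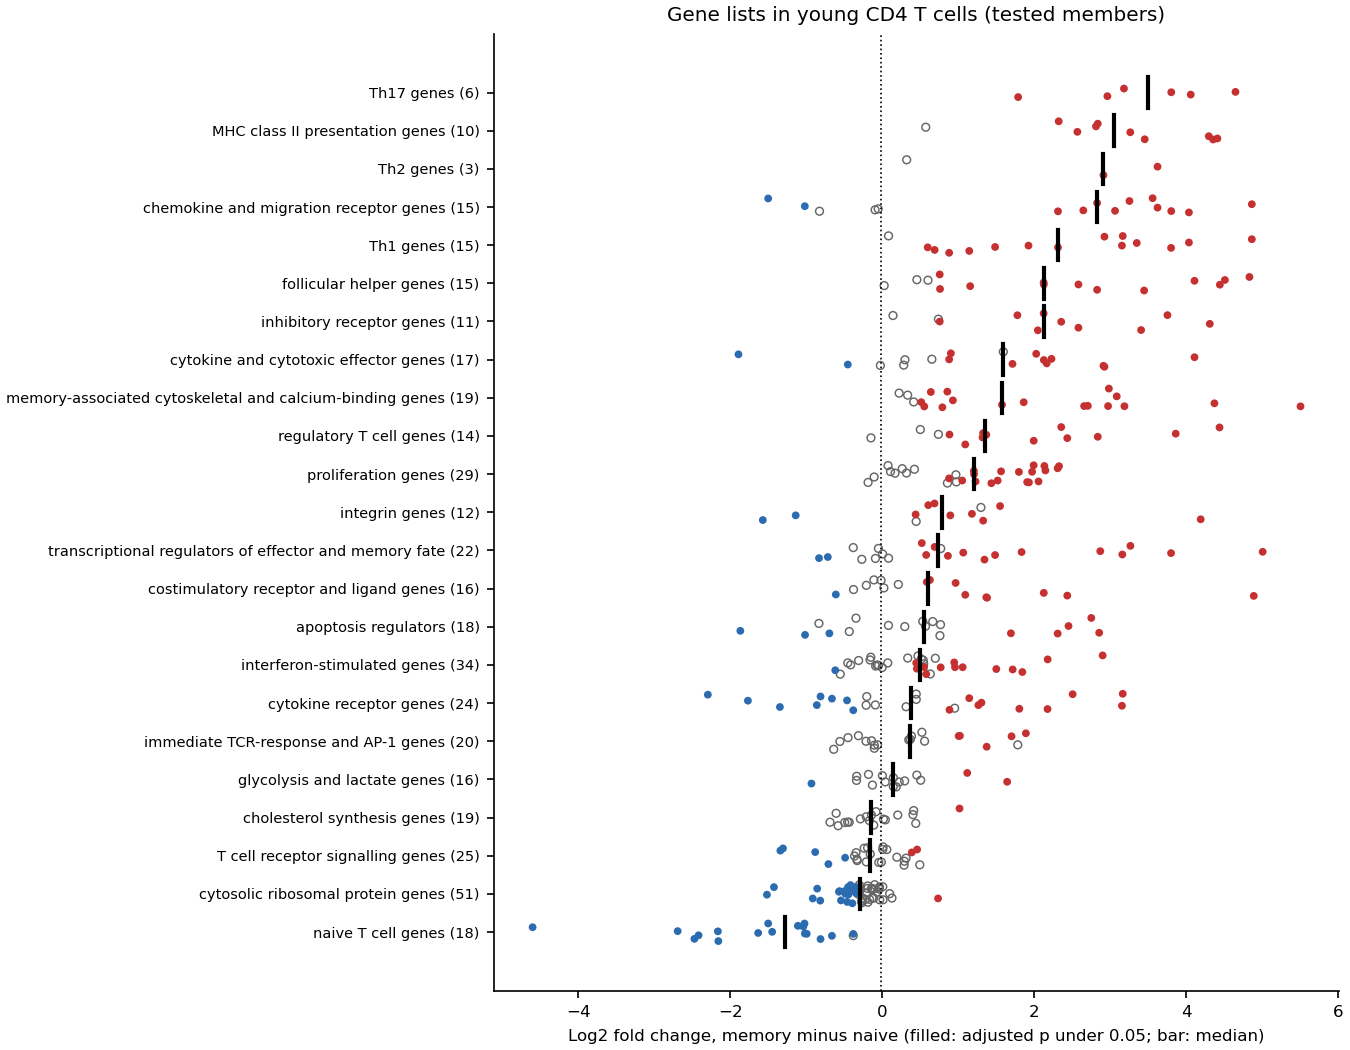
Log2 fold change (memory minus naive) of the tested members of 23 gene lists in young CD4 T cells, 1 point per gene, filled where the adjusted p was under 0.05, with a bar at the list's median. The dotted line is the median of all genes tested. The median of the naive T cell genes lies below it, and those of the subset, cytoskeletal and class II lists lie above it.

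Genes of antigen receptor signalling went both ways. Of 25 tested, 2 rose and 5 fell, with a median of -0.16, beside 14.7% and 11.4% over all genes. The number that rose was 0 without naive replicate 1, 2 or 4, and 1 without naive replicate 3 or memory replicate 2 or 3. Cd3e had 414, 535, 502 and 457 CPM and 402, 493, 474, 507 and 527 CPM, which overlapped (log2 fold change 0.01 ± 0.13, adjusted p = 0.975), as did the kinase gene Lck (log2 fold change -0.16 ± 0.15, adjusted p = 0.488). Grap2, for the adaptor GADS, fell from 141, 226, 196 and 183 CPM to 76.2, 69.1, 76.2, 69.1 and 76.8 CPM (log2 fold change -1.34 ± 0.15, adjusted p = 1.06e-05).

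Early response genes of the receptor were uneven between pools. Their median coefficient of variation was 62.8% among memory and 56.1% among naive libraries, beside 20.03% and 18.01% for all genes with at least 20 CPM. Of 20 tested, 5 rose and 0 fell, with a median of 0.36. The number that fell was 3 without memory replicate 4, where the median was -0.44, and 2 with no filter. Over all alternatives the median ran from -0.44 to 0.76, the latter without naive replicate 3. Nr4a1, a gauge of recent receptor signals, had 28.9, 45.7, 74.3 and 68.8 CPM and 17.3, 35.8, 53.1, 129.8 and 28.4 CPM, with memory replicate 4 highest (log2 fold change -0.06 ± 0.47, adjusted p = 0.94). Batf and Irf4, which act together in effector cells, both rose. Batf went from 59.4, 51.2, 63.01 and 55.99 CPM to 161, 154, 144, 147 and 143 CPM (log2 fold change 1.37 ± 0.12, adjusted p = 1.98e-06). Irf4 went from 5.09, 4.21, 15.1 and 5.87 CPM to 24.7, 27.3, 21.1, 24.4 and 30.8 CPM (log2 fold change 1.70 ± 0.33, adjusted p = 0.00155), or by 2.28 without naive replicate 3, its highest naive library.

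Survival genes went both ways. Bcl2 (chr 1, 106538178 to 106714274), which keeps resting lymphocytes alive, had 515, 449, 406 and 415 CPM in naive and 93.9, 143, 115, 142 and 123 CPM in memory libraries, with no overlap (log2 fold change -1.87 ± 0.15, adjusted p = 7.49e-07). Its antagonist Bcl2l11, for BIM, fell as well, from 41.4 to 55.98 CPM to 16.5 to 36.1 CPM (log2 fold change -1.02 ± 0.24, adjusted p = 0.00629). Bcl2a1b, a family member with near-identical copies so that its count is uncertain, rose from 3.01 to 5.33 CPM to 22.3 to 34.99 CPM (log2 fold change 2.75 ± 0.27, adjusted p = 3.6e-06). Pmaip1, for the death-promoting protein NOXA, had 33.3, 36.7, 52.9 and 26.1 CPM in naive and 231, 158, 141, 687 and 139 CPM in memory libraries (log2 fold change 2.85 ± 0.47, adjusted p = 0.000376). Memory replicate 4 stood far above the rest, and without it the fold change was 2.15. Bcl2l1 and Mcl1 did not pass (adjusted p = 0.0554 and 0.168), though Bcl2l1 did without naive replicate 2 and Mcl1 without naive replicate 1 (adjusted p = 0.0196 and 0.0485). Over the 18 apoptosis regulators tested, 5 rose and 3 fell.

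Proliferation genes rose in 18 of 29 cases and 0 fell, with a median of 1.20. Mki67, which marks cycling cells, had 24.1, 19.9, 19.5 and 23.5 CPM in naive and 81.2, 96.8, 91.2, 76.7 and 64.1 CPM in memory libraries (log2 fold change 1.90 ± 0.18, adjusted p = 2.8e-06). Top2a had 43.1, 34.9, 40.95 and 31.995 CPM and 229, 162, 204, 139.5 and 99.2 CPM (log2 fold change 2.13 ± 0.22, adjusted p = 7.94e-06). No proliferation gene named here overlapped between the groups. Of 16 glycolysis and lactate genes tested 2 rose and 1 fell, beside 14.7% and 11.4% over all genes. The call of the gene that fell was lost without any 1 of 5 libraries. Those that rose were Hk2, the inducible hexokinase, at 1.64 ± 0.28, and Tpi1 at 1.12 ± 0.21.

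Interferon-stimulated genes rose in 13 of 34 cases and 1 fell, with a median of 0.50. The number that rose was 8 without naive replicate 4, and the number that fell was 0 without naive replicate 2. Ifi27l2a had 351, 300.4, 434 and 336 CPM in naive and 1262, 974, 899, 943 and 967 CPM in memory libraries (log2 fold change 1.498 ± 0.13, adjusted p = 1.87e-06), and Isg15 rose from 22.3 to 38.02 CPM to 46.1 to 74.7 CPM (log2 fold change 1.06 ± 0.19, adjusted p = 0.000994). Ifit1 did not pass (log2 fold change -0.42 ± 0.20, adjusted p = 0.148). The summed level of these genes was 2285 to 2721 CPM in naive and 2968 to 4063 CPM in memory libraries, highest in memory replicate 2 and lowest in memory replicate 3, the libraries that were highest and lowest for the pDC markers. Bst2, which both lists hold, had 129, 340.4, 68.2, 189 and 144 CPM in memory libraries. The part of pDCs in these values was not tested. Of 19 cholesterol synthesis genes 1 rose and 0 fell, beside 14.7% and 11.4% over all genes. The gene that rose was Pmvk (log2 fold change 1.01 ± 0.31, adjusted p = 0.0264), and its call was lost without naive replicate 2 or memory replicate 1 or 4. With each library left out, the number of cholesterol synthesis genes that fell was 0 to 3, with 3 without naive replicate 1, 2 without memory replicate 4 and 1 without memory replicate 3.

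Cytosolic ribosomal protein genes leaned towards naive cells, with 1 of 51 higher and 21 lower in memory cells and a median of -0.29. The number lower was 15 to 26 with each library left out and 10 to 26 over all alternatives. Over those alternatives the median stayed at -0.34 to -0.22. Rps25 had 3694, 4264, 5046 and 3459.7 CPM in naive and 1279, 1230.4, 1147, 1924 and 1582 CPM in memory libraries (log2 fold change -1.52 ± 0.17, adjusted p = 1.19e-05). Rps19 fell by 0.86 and Rpl5 by 0.92 on the log2 scale, both without overlap. The gene that rose was Rps2 (log2 fold change 0.73 ± 0.12, adjusted p = 0.000529). Such genes have many processed copies in the genome, and counts may be split among them.

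Class II and dendritic cell genes were among the steepest rises. Of 10 class II presentation genes 9 rose and 0 fell, with a median of 3.05. H2-Aa (chr 17, 34282744 to 34287823), the α chain of the class II molecule I-A, had 84.2, 63.2, 123 and 65.1 CPM in naive and 2628, 2485, 772, 1559 and 1309 CPM in memory libraries (log2 fold change 4.35 ± 0.33, adjusted p = 4.45e-07). H2-Ab1, its β chain, had 62.1, 71.03, 101 and 74.1 CPM and 2563, 2702, 588, 1259 and 1246 CPM (log2 fold change 4.41 ± 0.37, adjusted p = 1.15e-06). In both, memory replicate 3 was the lowest memory library. Ciita, the activator of these genes, rose from 2.41 to 9.14 CPM to 37.6 to 79.8 CPM (log2 fold change 3.26 ± 0.33, adjusted p = 5.02e-06).

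The 10 highest fold changes with at least 20 CPM and no overlap belonged to Cd300c, Siglech, Cox6a2, Klk1, Clec10a, Rnd3, Klra17, Cd209d, Spns3 and Klk1b27. Siglech (chr 7, 55768178 to 55778925), the lectin that marks mouse pDC, had 1.697, 1.81, 1.26 and 1.5997 CPM in naive and 201, 608, 93.2, 250.5 and 188 CPM in memory libraries (log2 fold change 7.35 ± 0.58, adjusted p = 6.37e-07). Memory replicate 2 was highest and replicate 3 lowest, as for the summed pDC markers. Cox6a2 went from 0.533 to 2.41 CPM to 141, 234, 42.1, 104 and 133 CPM (log2 fold change 6.88 ± 0.53, adjusted p = 5.96e-07) and Rnd3 from 1.204 to 2.72 CPM to 110.2, 137, 55.1, 167 and 119 CPM (log2 fold change 6.01 ± 0.38, adjusted p = 6.22e-08). Of these genes 3 had almost no naive counts. Cd300c had 1 count over all naive and 610 over all memory libraries, a ratio per library size of 538 with a 95% counting interval of 96.2 to 21275. Clec10a had 2 and 318 counts, a ratio of 140.2 (38.5 to 1162). Spns3 had 3 and 268 counts, a ratio of 78.8 (26.7 to 384). These Clopper-Pearson intervals cover counting error only. Single libraries moved some of the fitted values. Without naive replicate 1 the fold change of Cd300c went from 8.33 to 9.87 and that of Klk1b27 from 5.69 to 8.80. Without memory replicate 2 that of Clec10a went from 6.57 to 5.82 and that of Klra17 from 5.98 to 5.39.

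Of the 9 pDC markers 8 rose, of 8 conventional dendritic cell markers tested 6, and of 9 macrophage and monocyte markers tested 9. Tcf4, which encodes the pDC regulator E2-2, had 27.5, 24.1, 26.1 and 17.1 CPM and 295, 622, 143, 363 and 215 CPM (log2 fold change 3.74 ± 0.35, adjusted p = 2.7e-06). C1qa, a complement gene of macrophages, reached 13.2 to 44.6 CPM in memory libraries beside 1.5997 to 4.096 CPM. Among natural killer (NK) cell markers 5 of 7 rose, while Prf1 fell and Eomes did not pass, as described above. Tyrobp, one of those that rose, had 501, 671, 149, 366 and 254 CPM beside 21.3 to 31.8 CPM. It was highest in memory replicate 2 and lowest in replicate 3, as were the summed pDC markers. Ncr1, which is more specific to NK cells, was too low to be tested. Klrb1c, for NK1.1, and Zbtb16, for PLZF, which mark innate-like T cells, rose to 21.2 to 39.8 CPM and 10.05 to 19.6 CPM, with fold changes of 3.64 ± 0.44 and 3.85 ± 0.58, the latter 5.47 without naive replicate 1. Of the other lists 3 of 6 B cell markers rose, 2 of 3 of γδ and innate-like T cells, 1 of 3 of plasma cells (2 without naive replicate 4), and 1 of 7 erythroid markers (0 to 2 with each library left out). Of 3 thymocyte markers 1 rose and 1 fell, 3 of 5 neutrophil markers fell, and 0 of 2 CD8 markers passed. With the segment genes and the listed markers of other cells left out of the table, 2716 of 10632 genes tested differed between memory and naive cells. Genes outside those lists, such as H2-Aa and Runx2, stayed in, so this count does not measure the part of other cells.

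**Figure D4:**
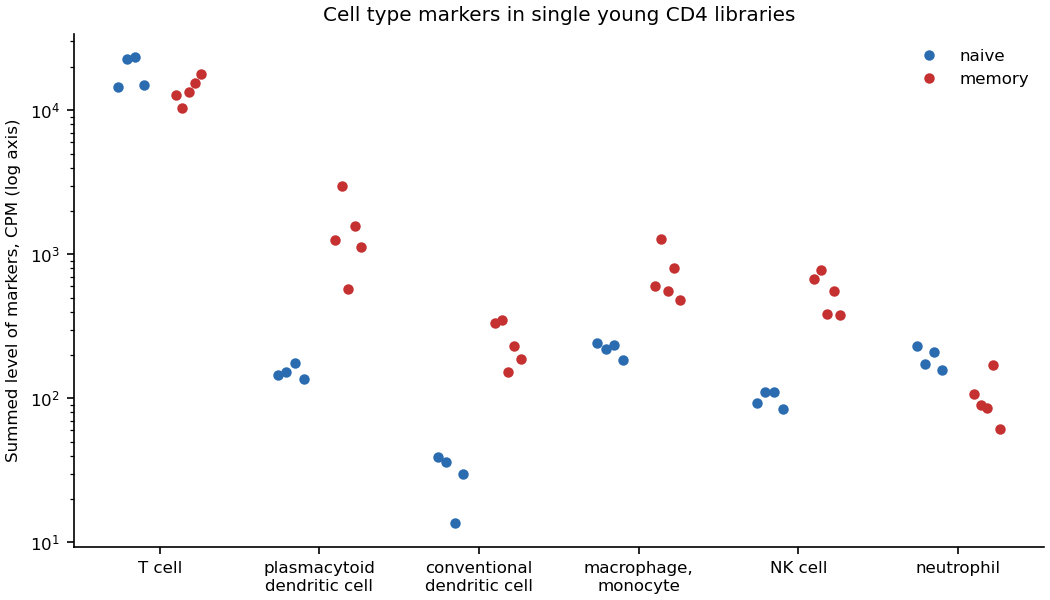
Summed level (CPM, log axis) of the markers of 6 cell types in each of the 4 naive (blue) and 5 memory (red) young CD4 libraries, 1 point per library. T cell markers overlap between the groups, pDC, conventional dendritic cell, macrophage and NK cell sums are higher in all memory libraries, and the neutrophil sums overlap.

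Immunoglobulin V segments, a class and its 2 named members chosen after their values were seen, were higher in the naive libraries. Of 37 V segments tested, 33 fell and 1 rose in memory cells, with a median of -3.38. Igkv4-63 (chr 6, 69377944 to 69378472) had 181, 169, 167 and 159.97 CPM in naive and 0, 0, 0.501, 0 and 0 CPM in memory libraries. Its counts over all libraries were 1643 and 1. Ighv4-1 had 92.7, 72.8, 71.5 and 60.3 CPM in naive libraries and 0 counts in all 5 memory libraries, so it was at least 278-fold lower there, taking 3 counts over the group as the limit. The constant region genes did not follow, with 3 higher and 1 lower of 9 tested. The plasma cell gene Jchain overlapped at 121 to 155 CPM and 43.4 to 186 CPM, but without memory replicate 4 it was lower in memory cells (log2 fold change -0.93, adjusted p = 0.0112), as with no filter (adjusted p = 0.0194). The B cell gene Cd79a stayed at no more than 6.02 CPM. Of 15 T cell receptor V segments 1 fell and 0 rose. In CD8 T cells of the same age the immunoglobulin V segments went the other way. On a scale shared by all 6 groups they summed to 65.1 to 86.7 CPM in CD8 naive and 1267 to 1652.5 CPM in CD8 memory libraries. The young CD4 sums on that scale were 1219 to 1661 CPM in naive and 148 to 213 CPM in memory libraries. In CD8 cells the constant region genes and Jchain were higher in memory libraries as well, which they were not as a set in CD4 cells. On that scale the constant region genes summed to 457 to 1039 CPM in CD8 naive and 9995 to 47100 CPM in CD8 memory libraries. Jchain had 10.2 to 30.3 CPM and 949 to 4936 CPM. The source of these transcripts was not tested.

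The difference between memory and naive cells was then set against that in CD8 T cells of the same age. The test of the difference of differences passed for 2221 of 12456 genes (17.8%), 983 higher (7.89%) and 1238 lower (9.94%) in CD4 cells. The CD8 libraries carried other cells' transcripts. Hbb-bs, a β-globin gene, had 11429 to 22987 CPM in CD8 memory beside 341 to 1046 CPM in CD4 memory libraries, and Cd3e had 115 to 241 CPM beside 396 to 526 CPM. The adipocyte gene Adipoq had 224 to 288 CPM in CD8 naive beside at most 0.595 CPM in CD4 naive libraries. Of the T cell markers 11 of 14 were higher and 1 lower in this test, so the gene values below carry that background, and its part in them was not tested.

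For 3 genes of the naive state the CD4 and CD8 courses could not be told apart by the test. The difference for Lef1 was -0.20 ± 0.24, adjusted p = 0.63, for Tcf7 0.20 ± 0.26, adjusted p = 0.656 and for Ccr7 0.06 ± 0.24, adjusted p = 0.889. That for Satb1 was -1.17 ± 0.26, adjusted p = 0.0036, and it fell farther in CD4 cells. Several receptor genes differed in the CD4 direction. Icos rose in CD4 memory cells but had 57.8 ± 13.2 CPM (SD, n = 4) in CD8 naive and 49.2 ± 9.99 CPM (SD, n = 3) in CD8 memory libraries (difference 2.35 ± 0.27, adjusted p = 2.37e-06). Itgb1 rose in both, by more in CD4 cells (difference 1.58 ± 0.22, adjusted p = 3.74e-05). Cxcr6 had 219 ± 43.3 CPM in CD8 naive and 51.8 ± 31.9 CPM in CD8 memory libraries, opposite to its course in CD4 cells (difference 6.11 ± 0.42, adjusted p = 2e-09). Cxcr3 showed a difference of 1.67 ± 0.36, adjusted p = 0.00233.

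Other genes differed towards CD8 cells. Cd44 had 9.72 ± 3.39 CPM in CD8 naive and 369 ± 79.7 CPM in CD8 memory libraries (difference -2.26 ± 0.34, adjusted p = 8.46e-05). Gzma reached 818 ± 411 CPM in CD8 memory libraries (difference -4.69 ± 0.60, adjusted p = 1.24e-05), and Mki67 459 ± 229 CPM (difference -3.92 ± 0.42, adjusted p = 1.03e-06). S100a6 and Tbx21 showed differences of 0.05 ± 0.27, adjusted p = 0.932, and -0.05 ± 0.49, adjusted p = 0.963, which did not pass. The 8 highest values of the test with at least 20 CPM, Adipoq among them, belonged to adipocyte and stromal genes of the CD8 naive libraries. Most of the 8 lowest, Hbq1b among them, belonged to erythroid genes of the CD8 memory libraries.

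In old mice the same contrast gave few calls. Of 12513 genes tested in the old CD4 libraries 27 differed (0.216%), 0 higher and 27 lower in memory cells, of which 26 were immunoglobulin V segments and the other was Fubp3, an RNA-binding protein gene chosen for being the exception. By edgeR's unadjusted p under 0.05, 697 genes differed, 320 of them higher, and DESeq2 called 73, 18 of them higher. The count was 17 without old naive replicate 3. These libraries share no sample with the young ones. Of the 2743 young calls tested in old libraries, 1737 had the same sign (63.3%). The median of those higher in young memory cells was 1.32 in young and 0.09 in old libraries, and that of those lower was -0.88 and -0.17. These genes were chosen by their young values, which by itself favours large young medians. The medians of the ages are therefore not on equal terms. The calls shared by both ages in the same direction were 23, which is 0.838% of the young and 85.2% of the old calls.

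The old naive libraries were spread widely. Lef1 had 121 to 559.7 CPM over the 3 old naive and 124 to 455 CPM over the 5 old memory libraries, beside 1225 to 1552 CPM in young naive libraries on the same scale. S100a6 had 248 to 963 CPM and 225 to 2072 CPM, beside 26.1 to 36.6 CPM in young naive libraries. In both genes the old groups overlapped. Of the old naive libraries, replicate 3 had 14.8% of its counts in immunoglobulin genes, beside 0.262% to 0.301% in young naive libraries. The marker sums of this paragraph are scaled to the total counts of each library, without the normalisation used elsewhere. The summed level of erythroid markers was 1318, 15397 and 10846 CPM in old naive replicates 1, 2 and 3, beside 604 to 1176 CPM in young naive and 1804 to 6092 CPM in old memory libraries. In the same order the old naive libraries had 703, 953 and 6106 CPM of neutrophil, 372, 527 and 3547 CPM of macrophage and monocyte and 318, 509 and 6947 CPM of plasma cell markers, so that replicate 3 was far above the others. The part of these cells in the old values was not tested. Icos, Il2rb and Bcl2 were within a narrow range in old naive libraries, at 275 to 332 CPM, 264 to 353 CPM and 355 to 422 CPM. In old memory libraries they had 269 to 483 CPM, 281 to 389.9 CPM and 279 to 355 CPM.

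The test of the old minus the young difference passed for 628 of 13562 genes (4.63%), 58 higher (0.428%) and 570 lower (4.2%). It shares the young libraries with the comparison above. For Cxcr3 the young fold change was 4.86 ± 0.17 and the old 0.66 ± 0.38 (difference -4.24 ± 0.43, adjusted p = 1.29e-05). For Cxcr6 they were 4.03 ± 0.21 and 0.88 ± 0.32 (difference -3.19 ± 0.38, adjusted p = 8.3e-05). For Maf they were 3.44 ± 0.18 and 0.06 ± 0.27 (difference -3.41 ± 0.32, adjusted p = 8.34e-06), for Il2rb 2.50 ± 0.16 and 0.18 ± 0.18 (difference -2.35 ± 0.23, adjusted p = 8.4e-06), and for Icos 2.12 ± 0.15 and 0.34 ± 0.20 (difference -1.81 ± 0.23, adjusted p = 0.000147). Of 18 naive T cell genes 2 passed with a difference above 0 and 0 with one below 0. Lef1 was among the former. For Bcl2, one of the apoptosis regulators, the values were -1.87 ± 0.15 and -0.13 ± 0.18 (difference 1.70 ± 0.22, adjusted p = 0.000147), and for Lef1 -2.47 ± 0.14 and -0.34 ± 0.49 (difference 2.11 ± 0.53, adjusted p = 0.0257). Ccr7 did not pass (difference 0.99 ± 0.57, adjusted p = 0.397). The count of 628 was 258 without old naive replicate 3, 416 without young naive replicate 4 and 1176 without old naive replicate 1.

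**Figure D5:**
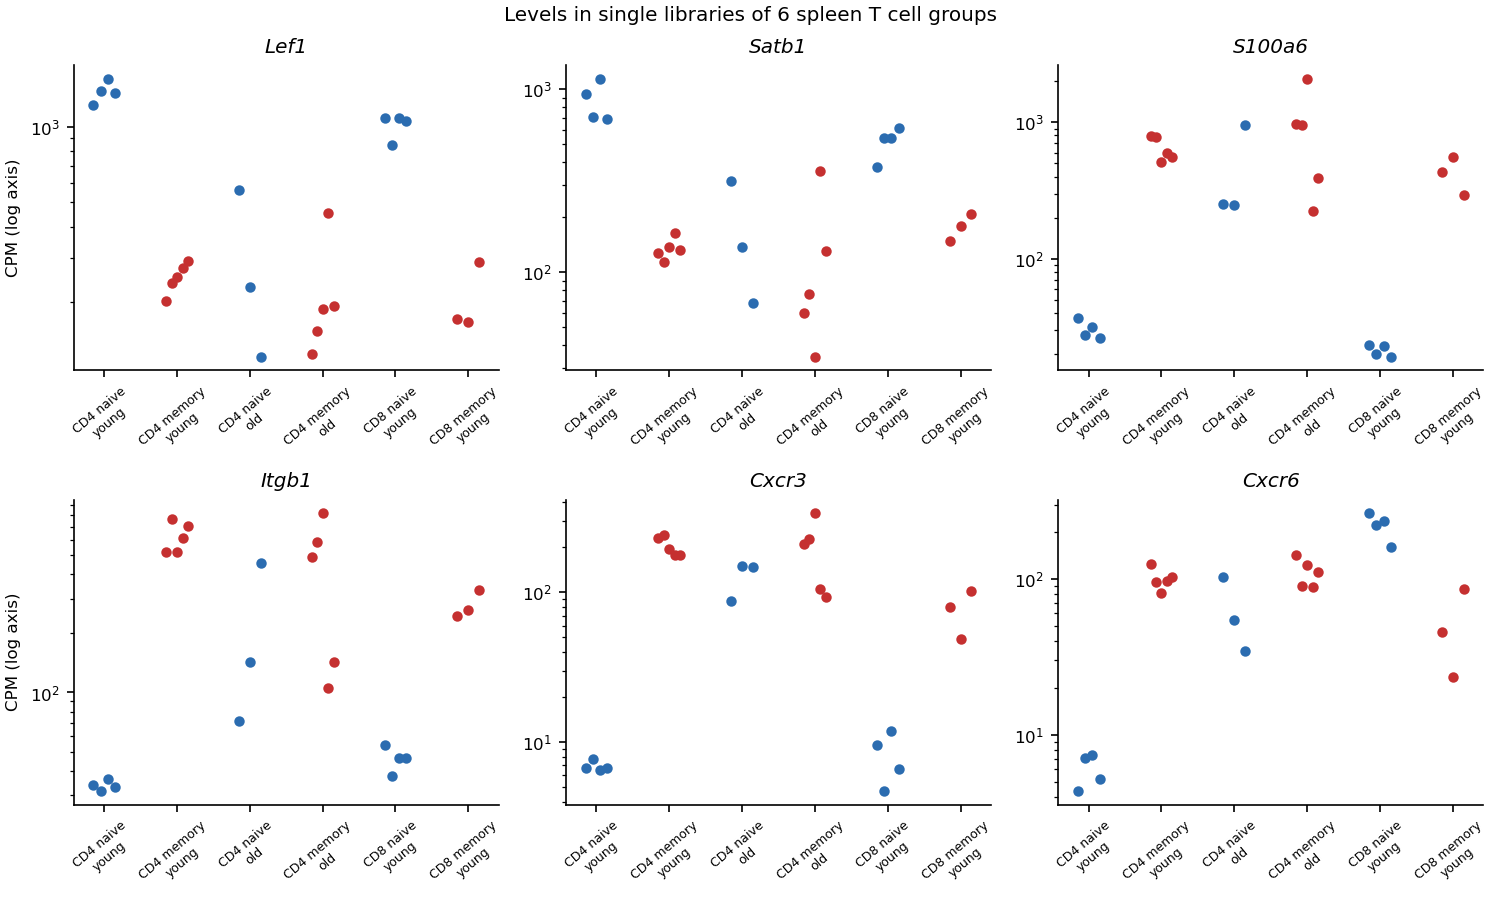
Level (CPM, log axis) of 6 genes in single libraries of 6 T cell groups from spleen, naive in blue and memory in red, scaled together over 24 libraries, 1 point per library. Young CD4 naive and memory libraries are apart in every panel, old CD4 naive and memory libraries overlap in every panel, and Cxcr6 is higher in CD8 naive than in CD8 memory libraries.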

How the data were processed

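Poly(A) RNA of sorted spleen T cells was read at its 3' end, and per the labels' protocols each molecule bore an identifier of 10 bp. No source used here states whether identifiers removed duplicate reads or whether counting used strand. Tools named in the submitters' processing notes are STAR and featureCounts 2.0.1, with GRCm38.p6 and mm10 as builds, and the protocols name sabre 80faf94. The values are whole-number counts per gene, deposited by the authors without normalization (55484 genes, 170 libraries). GENCODE M21 supplied GRCm38 coordinates for 53435 of the names, with 99.2% of counts. Another 26 names had turned into dates, and 37 mitochondrial genes had 0 counts.

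Groups were read from the titles. No pair of replicate libraries was identical, and the chi-square per degree of freedom was at least 6.05. Counts were tested with edgeR 4.0.16 (R 4.3.3, TMM scaling, glmQLFit and glmQLFTest, filterByExpr with a minimum count of 10 and total of 15), memory against naive, with interaction terms against CD8 and old cells. On simulated counts with 200 changed genes this recovered 55% of 2-fold and 93% of 4-fold changes among 10536 genes in the young comparison, and 10% and 74% among 11731 in the old. Alternatives were RLE and upper quartile scaling, no filter, a minimum count of 50, DESeq2 1.42.0, a replicate block, a shared spread, leaving out marker genes, and each library left out.

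Named genes were the 10 highest and 10 lowest fold changes with at least 20 CPM and no overlap, the 10 most abundant per direction changed at least 2-fold, and of each of 23 gene lists and 14 marker lists the first 6 or the 6 called with the lowest adjusted p. In the CD8 comparison 8 per direction were taken. These rules passed over Xist, Tsix, chromosome Y, receptor segments, pseudogenes, antisense and unnamed genes, except in lists. Members and lists were chosen with earlier results of these data known, so lists are described by counts and medians. Genes with near-identical copies, such as Ly6c1, Klk1 and Klk1b27, are uncertain.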

Additional observations from a re-analysis of the deposited data

Results flagged for a closer look

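A library was singled out where its gap to the nearest other library of its group was large beside the group's range, by Dixon's criterion at 95%, which chance meets in about 1 in 20 groups. Of 268 groups of values tested 24 met it. In memory replicate 1, Ifi27l2a (1262 CPM beside 899 to 974 CPM) and Lck (931 CPM beside 617 to 708 CPM) lay above the other memory libraries, while Itga4 (237 CPM beside 333 to 357 CPM), Itgal (157 CPM beside 210.2 to 229 CPM) and Sostdc1 (30.2 CPM beside 79.2 to 98.4 CPM) lay below the other memory libraries. In memory replicate 2, Clec10a (67.5 CPM beside 7.52 to 23.2 CPM), Klk1b27 (43.4 CPM beside 16.9 to 22.05 CPM), Klra17 (71.9 CPM beside 15.5 to 20.9 CPM) and Rpl5 (596 CPM beside 504 to 514 CPM) lay above the other memory libraries, while Il4 (2.81 CPM beside 6.02 to 6.98 CPM) lay below the other memory libraries. In memory replicate 3, Igkv4-63 (0.501 CPM beside 0 CPM) lay above the other memory libraries. In memory replicate 4, Bhlhe40 (429.8 CPM beside 58.3 to 151 CPM), Il17a (2.09 CPM beside 0 to 0.2396 CPM) and Pmaip1 (687 CPM beside 139 to 231 CPM) lay above the other memory libraries. In naive replicate 1, Cd300c (0.339 CPM beside 0 CPM) and Klk1b27 (1.36 CPM beside 0 CPM) lay above the other naive libraries, while Bach2 (118 CPM beside 154 to 155 CPM) and Rora (13.9 CPM beside 22.998 to 24.5 CPM) lay below the other naive libraries. In naive replicate 2, Cd79a (6.02 CPM beside 3.73 to 3.78 CPM) lay above the other naive libraries. In naive replicate 3, Ctla4 (32.8 CPM beside 6.62 to 9.16 CPM) and Irf4 (15.1 CPM beside 4.21 to 5.87 CPM) lay above the other naive libraries. In naive replicate 4, S100a11 (77.9 CPM beside 39.03 to 39.7 CPM) lay above the other naive libraries. Of the naive libraries replicate 1 had 0.301% of counts in immunoglobulin genes, beside 0.262% to 0.263%, and replicate 2 had 9.06% in ribosomal protein genes, beside 10.5% to 10.6%.

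The difference between memory and naive cells itself differed between groups in a direct test for some of the genes reported. Against CD8 cells these log2 differences (with standard error) passed edgeR's quasi-likelihood test at an adjusted p of 0.0036 or less: Cd44 -2.26 ± 0.34, Cxcr3 1.67 ± 0.36, Cxcr6 6.11 ± 0.42, Gzma -4.69 ± 0.60, Icos 2.35 ± 0.27, Itgb1 1.58 ± 0.22, Mki67 -3.92 ± 0.42 and Satb1 -1.17 ± 0.26. Between old and young CD4 cells they passed at 0.0257 or less: Bcl2 1.70 ± 0.22, Cxcr3 -4.24 ± 0.43, Cxcr6 -3.19 ± 0.38, Icos -1.81 ± 0.23, Il2rb -2.35 ± 0.23, Lef1 2.11 ± 0.53 and Maf -3.41 ± 0.32. The CD8 libraries hold the globin and adipocyte counts given above.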

How the results depend on the processing

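The young comparison kept its count within 1.5 times of 2804 under all 17 alternatives, from 1877 genes with a minimum count of 50 to 3060 with no filter. Leaving out each library gave 2307 to 2706 genes, and 1790 genes were called each time, 1077 of them higher. Among same-numbered memory and naive libraries, those of replicate 1 deviated together with a correlation of 0.3787, the highest of any memory and naive pair. The other same-numbered pairs had -0.0388 to -0.0318. The replicate 1 libraries also had the most genes with a count, 29930 in naive and 31347 in memory, beside 19368 to 22659 in the others. Whether the replicate 1 libraries share a source was not tested. The fit with the replicate block called 2542 genes. The CD8 interaction gave 1684 to 2374 with each library left out and 1692 with the replicate block. The old comparison (27) gave 302 with no filter (47 higher), 73 with DESeq2 (18 higher), 17 with the replicate block (3 higher) and 17 to 40 with each library left out. The old against young difference (628) gave 1007, 953 and 378 under the same settings and 258 to 1176 with each library left out. The cause of these changes was not tested. Of 107 named genes called in young cells, 6 lost the call under some alternative in which they were tested, and 0 reversed. Alternatives in which a gene was too low to be tested, or was left out, do not enter this count. Il4 was tested in 12 of the 17, and C1qa, Prf1 and Zbtb16, for example, in 15. On simulated counts 10% of 2-fold changes were recovered in the old comparison and 55% in the young one, and the median standard error over genes was 0.34 and 0.25. The simulation changed 200 genes, fewer than the 2804 called in the young data and more than the 27 called in the old. The share of changed genes affects the adjusted p, so the rates in the data may differ.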
